A study of Homo sapiens with 17 samples.

Results

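KG-1a is a human acute myeloid leukaemia (AML) line of immature phenotype, a less differentiated variant of KG-1, and the study placed it among the lines resistant to D9. D9 is an analog of 3-deazaneplanocin A (DZNep), an inhibitor of S-adenosylhomocysteine hydrolase. The KG-1a arrays, chosen by the cell line given in their titles, were 3 of the 17 Illumina HT-12 V4 bead arrays of the series. They held untreated cells, cells given 1 µM D9 and cells given 5 µM D9, all harvested at 48 h, with 1 array for each. The other lines were THP-1, Mono-Mac-1, TF-1 and MOLM-14, each with the same 3 conditions, and MV-4-11, which had 1 µM and untreated arrays only. All are established lines grown in serum-containing medium, and that of TF-1 also held IL-3. The labels call the control untreated and name no vehicle. No condition of KG-1a was repeated, both doses share 1 untreated array, and each array reads 1 culture of 1 line, so KG-1a stands here for itself and not for immature AML as a group. In such bulk RNA, fewer cells with a transcript and less transcript per cell cannot be told apart.

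S-adenosylhomocysteine is the product left when methyltransferases spend S-adenosylmethionine, and it inhibits these enzymes when the hydrolase fails to clear it. Loss of methylation of histone H3 at lysine 27, which EZH2 and its partners in Polycomb repressive complex 2 write, is the best known result of DZNep. In blood, CD34 without CD38 marks stem and early progenitor cells, from which the CEBP factors drive granulocytic and monocytic maturation.

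Levels below are log2 normalized intensity, in which a step of 1 is 2-fold, and the median over all probes was 6.23. A level is compared between arrays for 1 probe and never between probes. The arrays carried no detection p-values, so levels near 6.16, the level above which a probe's mean had to lie to be tested, are not distinguished from background.

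The untreated KG-1a array was first set against the labelled cell type. CD34 read 13.21 in KG-1a, against 11.64 in TF-1 and 6.17 to 6.44 in the other 4 lines. HOPX, a homeodomain-only protein of stem and T cells, read 12.49 in KG-1a and at most 5.86 in any other line. BAALC, a gene of immature leukaemias, read 9.56 in KG-1a and at most 6.79 elsewhere. Of 11 markers of immature progenitors, 6 were highest in KG-1a, SPINK2, MN1 and PROM1 being the others, although PROM1 (6.22), ERG (6.18), KIT (6.36) and MEIS1 (6.40) stood near background, and MEIS1 was lower in KG-1a than in any other line. CD38 was also lowest in KG-1a, at 6.56 against 6.86 to 8.32. None of 10 monocytic and granulocytic markers was highest in KG-1a, and LYZ (6.03), CSF1R (6.14) and the neutrophil elastase gene ELANE (6.21) read at background there. ELANE reached 12.90 to 14.64 in the monocytic lines THP-1, Mono-Mac-1, MOLM-14 and MV-4-11. The erythroid markers HBG1, HBG2, KLF1 and GATA1 read 5.95 to 6.20 in KG-1a, and ITGA2B, an integrin of megakaryocytes and stem cells, read 9.80. Some lymphoid genes were present beside the myeloid label, and of 9 lymphoid markers 7 were highest in KG-1a. CD3D, a subunit of the T cell receptor complex, read 12.74 in KG-1a and at most 6.48 elsewhere. LTB, a lymphoid cytokine, read 11.36 against at most 8.09, and the pre-B gene IGLL1 read 8.97 against at most 7.71. CD2 (6.5), CD3E (6.29), DNTT (6.29) and VPREB1 (6.10) were also highest but stood near background. CD79A (6.57) and MS4A1 (6.24) were not highest.

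**Figure D1:**
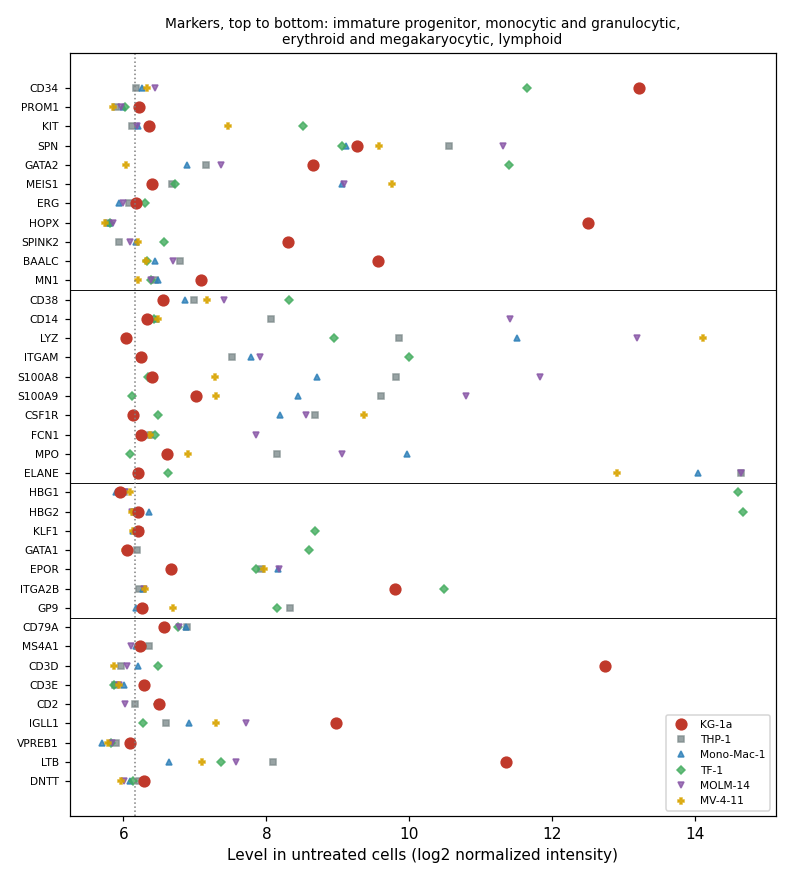
Level of each marker in untreated cells (x axis, log2 normalized intensity, 1 array per line), with KG-1a as large red circles and the other 5 lines as small symbols; horizontal lines separate the 4 marker groups and the dotted line is the level of 6.16. CD34, HOPX, SPINK2, BAALC, CD3D and LTB lie to the right of every other line in KG-1a, and the monocytic and granulocytic markers lie near the dotted line.

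Fewer probes moved in KG-1a than in any other line. Of 28394 tested probes, 34 changed at least 2-fold at 1 µM in KG-1a (0.12% of those tested), 18 of them higher (0.0634%) and 16 lower (0.0563%). The other lines had 46 in MOLM-14 (0.162%), 94 in TF-1 (0.331%), 238 in Mono-Mac-1 (0.838%), 397 in THP-1 (1.4%) and 646 in MV-4-11 (2.28%). At 5 µM the number was 122 in KG-1a (0.43%), 83 of them higher (0.292%) and 39 lower (0.137%), against 288 in MOLM-14 (1.01%), 348 in TF-1 (1.23%), 423 in THP-1 (1.49%) and 782 in Mono-Mac-1 (2.75%). The median size of a probe's change was likewise smallest in KG-1a, at 0.12 at 1 µM against 0.13 to 0.18 in the other lines, and at 0.13 at 5 µM against 0.15 to 0.18. No test was made, since 1 line against 5 cannot give a permutation p below 0.167. The 3 KG-1a arrays had correlations of 0.99 to 0.995 across probes with each other and of 0.841 to 0.91 with arrays of the other lines, and probes are not independent replicates.

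**Figure D2:**
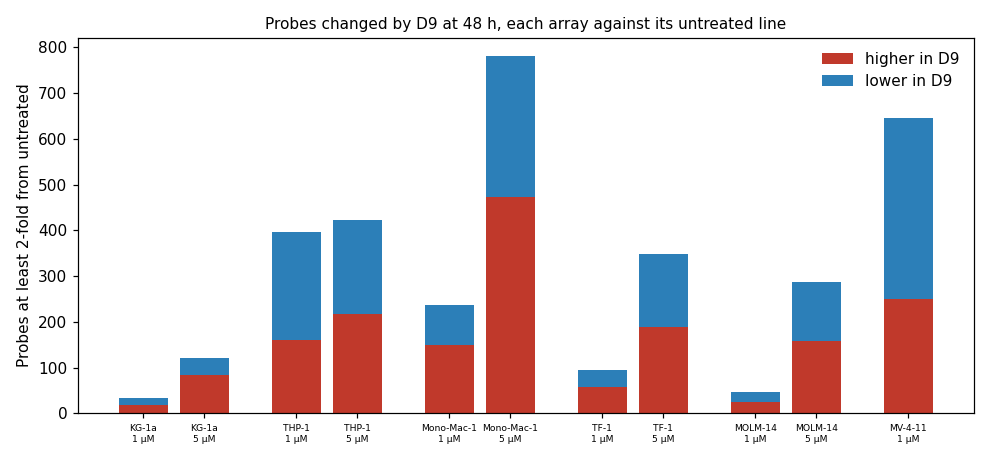
Number of tested probes at least 2-fold from the untreated array of the same line (y axis), split into probes higher (red) and lower (blue) in D9, for each D9 array; MV-4-11 had no 5 µM array. KG-1a has the shortest bar at each dose, 34 and 122 probes.

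At both doses together, 24 probes were at least 2-fold from the untreated array the same way (0.0845% of those tested), 14 of them higher (0.0493%) and 10 lower (0.0352%). The same count was 44 in MOLM-14 (0.155%), 70 in TF-1 (0.247%), 208 in THP-1 (0.733%) and 218 in Mono-Mac-1 (0.768%). The 14 higher probes included 9 with a gene symbol, for 8 genes, and the 10 lower probes 8 with a symbol, for 8 genes. Just inside the 2-fold line stood ZDHHC11, with -1.0 at 1 µM and -1.07 at 5 µM, and just outside it CRISP2 with 0.97 and 1.57 and GON7 with -1.0 and -1.24. Because both doses share the untreated array, 74.2% of all tested probes moved the same way at both, and an error in that array enters both.

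To set these changes against an error, the mean of both doses minus untreated was fitted in limma with the spread between the doses of a line pooled over the 5 lines that have both. That spread holds real dose effects as well as noise but no spread between repeat cultures, which were not measured. The fit assumes that KG-1a varies like the other lines and that the untreated array varies like the D9 arrays. Its standard errors and adjusted p-values therefore do not measure replicate error between D9 and untreated cultures. With Benjamini-Hochberg adjustment over all tested probes, 128 probes were called (0.451%), 62 higher (0.218%) and 66 lower (0.232%), at an adjusted p under 0.10. The median standard error (SE) was 0.15. The calls depend on how the spread was estimated. Without limma's moderation of the variances across probes, 0 probes were called, and the smallest adjusted p of that fit was 0.288. With other lines left out of the pooled spread, 30 were called without MOLM-14 and 40 without Mono-Mac-1. Scaling arrays by their medians split the calls 149 higher to 30 lower. Of the 128 calls, 20 probes (11 higher and 9 lower, 16 with a symbol) stayed called in the same direction under all of 8 other sets of values or lines. Values with ± are mean log2 changes of both doses with the SE of this limma fit, and every adjusted p given for a D9 change comes from it.

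The gene with the largest rise was IGLL1, which encodes the lambda-like chain of the surrogate light chain of pre-B cells. Its probe ILMN_1815840 read 8.13 in untreated KG-1a, 9.70 at 1 µM and 10.26 at 5 µM. The rise was 1.85 ± 0.20, or 3.61-fold (adjusted p = 0.00615). A brighter probe, ILMN_2393765, read 8.97, 10.11 and 10.85 at the same doses and rose by 1.51 (adjusted p = 0.0476), and ILMN_1656713 rose by 0.95 ± 0.14 (adjusted p = 0.0408). All 3 tested probes were thus higher at both doses and higher at 5 than at 1 µM, and all 3 were among the 20 that stayed called. VPREB1, the other chain of the surrogate light chain, read 6.10, 6.22 and 6.79 and was too dim over the series to be tested. Whether the IGLL1 probes also read other lambda-like genes was not tested.

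CPA3, a carboxypeptidase of mast cell granules that is also transcribed in early progenitors, read 10.28 in untreated KG-1a, 11.51 at 1 µM and 12.31 at 5 µM. It rose by 1.63 ± 0.34 (adjusted p = 0.0984), and the untreated level in the other 5 lines was 5.96 to 6.61. The promoters of these genes are shown because their transcripts are the leading rises with a known place in progenitors. Each is the 250 bases before the start site, 5′ to 3′, from RefSeq on GRCh38.p14, that of IGLL1 on the minus strand of chr22:23580291-23580540 with every E-box (CANNTG) in capitals, and that of CPA3 on the plus strand of chr3:148865046-148865295 with every GATAA in capitals.

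IGLL1 promoter: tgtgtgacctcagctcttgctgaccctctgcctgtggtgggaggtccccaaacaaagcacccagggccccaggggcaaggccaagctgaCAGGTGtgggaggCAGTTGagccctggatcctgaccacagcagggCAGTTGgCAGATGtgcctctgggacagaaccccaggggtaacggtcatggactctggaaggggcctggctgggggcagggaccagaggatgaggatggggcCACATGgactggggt
CPA3 promoter: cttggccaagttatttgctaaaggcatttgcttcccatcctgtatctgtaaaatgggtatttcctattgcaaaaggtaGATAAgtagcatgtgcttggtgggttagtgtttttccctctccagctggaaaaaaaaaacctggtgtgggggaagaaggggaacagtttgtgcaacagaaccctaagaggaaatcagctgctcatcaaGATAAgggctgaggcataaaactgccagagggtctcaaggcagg

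E-boxes are the sites read by basic helix-loop-helix factors such as E2A, which drives pre-B genes. The IGLL1 window held 5, and 0.888% of 35116 RefSeq start site windows of that length hold at least 5, while 61.8% hold at least 1. The CPA3 window held GATAA, the core of the sites read by GATA factors, at 172 and 44 bases before the start. Windows with at least 2 on either strand make up 3.87% of all, and those with at least 1 20.4%. The limits of 5 and 2 were set at the counts in these same windows, so the shares only describe them. Whether any factor acts at these sites in KG-1a was not tested. The CPA3 window also held E-boxes, not in capitals, at 226, 163, 130 and 58 bases before the start, so E-boxes were not particular to IGLL1. In KG-1a GATA2 itself, the progenitor GATA factor, read 8.65 untreated, 8.81 at 1 µM and 9.05 at 5 µM, which was not a called change (adjusted p = 0.82).

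BBOX1, the last enzyme of carnitine synthesis, read 8.20, 9.45 and 9.63 at 0, 1 and 5 µM and rose by 1.34 ± 0.15 (adjusted p = 0.00615). CEBPA, the factor that commits progenitors to the granulocytic and monocytic path, read 9.01, 10.02 and 10.62 and rose by 1.31 ± 0.25 (adjusted p = 0.0884). MTSS1, a membrane and actin regulator, read 11.04, 12.05 and 12.53 and rose by 1.25 ± 0.21 (adjusted p = 0.0515). In each of these genes most of the rise had been reached at 1 µM, and CEBPA and MTSS1 stood higher again at 5 µM. A dimmer probe of MTSS1, ILMN_1676980, moved the same way without a call, by 0.93 (adjusted p = 0.136). The other genes at least 2-fold higher at both doses were ZNF735, a zinc finger gene (1.64 ± 0.34, adjusted p = 0.0984), NRGN, a calmodulin-binding protein (1.19 ± 0.21, adjusted p = 0.0682), and the zinc transporter SLC39A3. SLC39A3 has no single direction, because ILMN_1746986 rose by 1.26 ± 0.18 while its brightest probe ILMN_2234970 read 0.66 lower (adjusted p = 0.234).

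**Figure D3:**
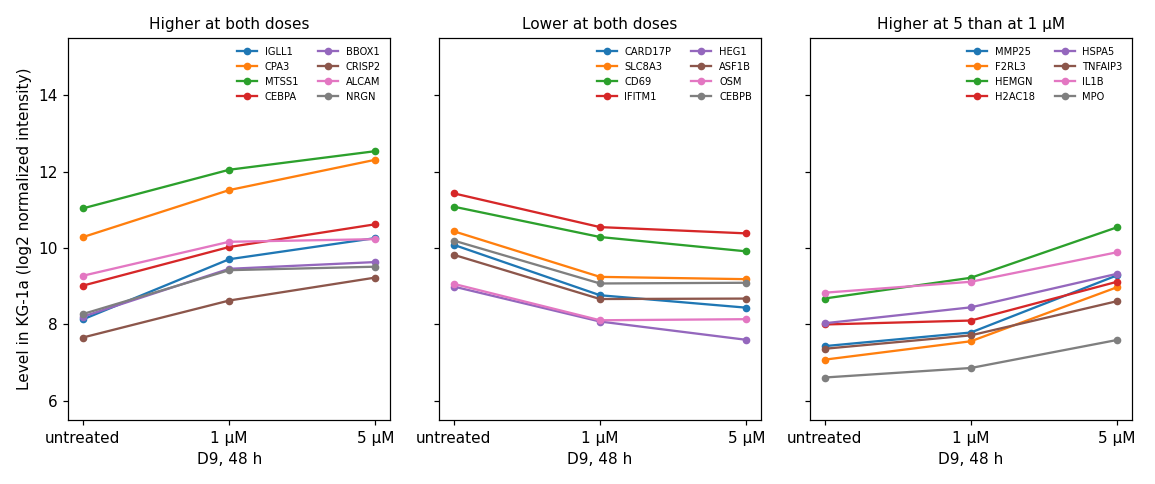
Level of 24 genes in KG-1a (y axis, log2 normalized intensity, 1 array per point) in untreated cells and at 1 and 5 µM D9, for 8 genes each higher at both doses, lower at both doses or higher at 5 than at 1 µM. Lines in the first and second panels take most of their step by 1 µM, and those in the third take most of it between 1 and 5 µM.

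The genes that follow were called as well but were chosen after their values were seen. CRISP2, a secreted protein best known from testis, read 7.66, 8.62 and 9.23 and rose by 1.27 ± 0.20 (adjusted p = 0.0476). CHRM3, a muscarinic acetylcholine receptor, read 9.76, 10.58 and 11.30 and rose by 1.18 ± 0.22 (adjusted p = 0.087). ALCAM, an adhesion molecule of the immunoglobulin family, read 9.27, 10.16 and 10.23 and rose by 0.92 ± 0.14 (adjusted p = 0.0408). All 3 genes were higher on both D9 arrays than on the untreated array, and ALCAM had reached its level by 1 µM. A dimmer CHRM3 probe, ILMN_3248627, had 0.26 without a call. EDIL3, an integrin ligand, rose by 1.07 ± 0.17, the small RNA SNAR-A1 by 1.03 ± 0.19, PPCS, an enzyme of coenzyme A synthesis, by 0.99 ± 0.17, and the forkhead factor FOXN3 by 0.93 ± 0.19. LST1, a leukocyte transcript, rose by 1.02 ± 0.20 on ILMN_1718936, but its 3 other tested probes, 2 of them brighter, read 0.23 to 0.26 higher without a call.

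The probe with the largest called fall was ILMN_1707979 of CARD17P. The gene belongs to the cluster of caspase recruitment domain genes beside CASP1, and this probe read 10.08 in untreated KG-1a, 8.76 at 1 µM and 8.44 at 5 µM. The fall was -1.48 ± 0.15, or 2.79-fold (adjusted p = 0.00615). The other tested CARD17P probe, ILMN_3238525, read 7.04 untreated and had a change of -0.04 (adjusted p = 0.98), so the fall rests on 1 of 2 probes. A probe of its neighbour CARD16 (ILMN_3252556) went the other way, by 0.75 (adjusted p = 0.0967), and CASP1 itself had changes of -0.01 on ILMN_2326509 and -0.10 on ILMN_2326512, neither of them called.

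SLC8A3, a sodium and calcium exchanger, read 10.44, 9.24 and 9.18 at 0, 1 and 5 µM and fell by 1.22 (SE 0.13, adjusted p = 0.00615). ASF1B, a histone chaperone that works at replication forks, read 9.82, 8.66 and 8.67 and fell by 1.15 (SE 0.18, adjusted p = 0.0455). Both genes were already as low at 1 µM as at 5 µM. A dim second probe of SLC8A3, ILMN_1770987 (6.41 untreated), had 0.07 without a call. UQCC5, an assembly factor of respiratory complex III, fell by 1.27 (SE 0.21, adjusted p = 0.0496) and ZDHHC11, a palmitoyltransferase, by 1.04 on ILMN_1694514 (SE 0.12, adjusted p = 0.0114), its 2 other probes, near background, having -0.12 each. FMC1, an assembly factor of ATP synthase, fell by 1.07 on ILMN_3238680 (adjusted p = 0.0302), while its brightest probe ILMN_2078547 read 0.50 higher without a call, so that it too has no single direction. CEBPB, the CEBP factor of monocytes and of stress granulopoiesis, read 10.19, 9.07 and 9.09. Its change of -1.11 ± 0.24 was at least 2-fold at both doses but missed the threshold (adjusted p = 0.109), and so did RNA18SN5, an 18S ribosomal RNA gene (-1.20 ± 0.43, adjusted p = 0.349). CEBPA and CEBPB thus stood on opposite sides of untreated at both doses, CEBPA with a call and CEBPB without.

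The other called falls given here were again chosen after their values were seen. CD69, an early activation antigen of lymphocytes and of progenitors, read 11.08, 10.29 and 9.91 and fell by 0.98 (SE 0.19, adjusted p = 0.0964). IFITM1, an interferon-induced membrane protein, read 11.43, 10.54 and 10.38 and fell by 0.97 (SE 0.16, adjusted p = 0.0482). OSM, the cytokine oncostatin M, read 9.06, 8.11 and 8.14 and fell by 0.94 (SE 0.12, adjusted p = 0.0255). None of the 3 regained its untreated level at 5 µM. A second probe of CD69, ILMN_1651316, had a change of -0.15 without a call. HEG1, a receptor of endothelial junctions, read 8.99, 8.07 and 7.60 and fell by 1.15 (SE 0.18, adjusted p = 0.0476). GON7, a subunit of the complex that modifies transfer RNA, fell by 1.12 (SE 0.17), ANKMY1 by 1.14 (SE 0.23), the non-coding CCDC26 by 1.05 (SE 0.19) and the imprinted H19 by 0.85 (SE 0.17). GAD1, the glutamate decarboxylase, fell by 0.94 on ILMN_1660973 (SE 0.15), but its brightest probe ILMN_2292646 had -0.12 without a call.

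How far the KG-1a response was shared was asked by comparing D9 changes line by line. Of the 62 probes called higher in KG-1a, 15 (24.2%) were also higher in all 5 other lines, and of the 66 called lower 27 (40.9%) were lower in all 5, against 11.4% of all tested probes. ANKMY1, with -0.97 at 1 µM and -1.31 at 5 µM in KG-1a, lay between -1.48 and -1.01 in the others. TYSND1, a peroxisomal protease, with -0.94 in KG-1a on ILMN_1775677 lay between -1.38 and -0.30. Its other tested probes, dimmer, had -0.18 and -0.02 in KG-1a without a call. UQCC5 and the SLC39A3 probe also moved the KG-1a way in 5 of 5. By contrast, the median change of the called probes was 0.85 in KG-1a against 0.27 for the mean of the other lines among the higher ones, and -0.78 against -0.22 among the lower ones, a gap that the choice of these probes by their KG-1a value partly sets.

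Some of the genes called in KG-1a read near background in the other lines. BBOX1 (5.86 to 6.01 untreated in the other 5 lines), CHRM3 (5.96 to 6.10), CARD17P (6.04 to 6.20 on ILMN_1707979), SLC8A3 (5.75 to 6.54), FGFBP2 (5.82 to 6.01) and H19 (5.78 to 5.92) were such genes, named after their values were seen. They passed the filter on the mean of all arrays through their level in KG-1a. For them, a fall could hardly be seen in the other lines, although SLC8A3, at 6.54 in TF-1, had a change of -0.34 there. For such genes a difference between lines in the D9 change cannot be told apart from one in the untreated level.

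The difference itself was tested by setting the KG-1a change against the changes of the 5 other lines in limma, with 1 value per line and the KG-1a value assumed to vary like the others. At an adjusted p under 0.10, 0 of 28394 probes were called (0%; smallest adjusted p = 0.173), with 553 at an unadjusted p under 0.05 (1.95%). With the variance modelled on intensity, 13 probes were called, among them BBOX1, IGLL1, HEMGN, SNAI2, SLC5A12, CARD17P, FGFBP2 and H19, and with no filter on dim probes 3 were called, CARD17P, BBOX1 and a probe without a symbol. The genes with the smallest p are therefore given as values. Above the other lines these were BBOX1 (difference 1.41 ± 0.15), ALCAM (1.06 ± 0.15), CHRM3 (1.22 ± 0.17), IGLL1 (1.88 ± 0.26 on ILMN_1815840) and HEMGN (1.05 ± 0.18 on ILMN_1680094). Below them were CARD17P (-1.49 ± 0.15 on ILMN_1707979, -0.07 on ILMN_3238525), SLC8A3 (-1.17 ± 0.19), CD69 (-0.90 ± 0.15), H19 (-0.96 ± 0.16) and PHYKPL, an enzyme of hydroxylysine breakdown (-0.95 ± 0.17). The limit given above for BBOX1, CHRM3, CARD17P, SLC8A3, FGFBP2 and H19 holds for these differences and calls as well. It extends to HEMGN (5.75 to 6.23 untreated in the other lines on ILMN_1680094) and largely to IGLL1 (5.99 to 6.95 on ILMN_1815840). Untreated levels of SNAI2 and SLC5A12 are not given here.

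Not all of the genes with the smallest p were silent elsewhere. ALCAM read 6.37 to 10.83 untreated in the other lines, and its change lay between -0.19 and -0.05 in all 5. CD69 read 9.40 untreated in TF-1, where its change was -0.11. It read 5.78 to 6.06 in the remaining 4 lines, at background, where a fall could hardly be seen. PHYKPL read 7.71 to 8.23 and its change lay between 0.19 and 0.52, on the opposite side of 0 from the -0.65 ± 0.19 of KG-1a, which was itself not called (adjusted p = 0.225). The brighter IGLL1 probe ILMN_2393765 gave a difference of 1.10 ± 0.69 only (unadjusted p = 0.155), since it also had changes of 1.25 in THP-1 and 1.04 in Mono-Mac-1. CEBPA was above untreated in all 5 other lines too, by 0.28 to 0.53 against 1.31 in KG-1a. CPA3 was not particular to KG-1a, since TF-1, the other CD34-positive line, had a change of 2.77 against 1.63 in KG-1a and the remaining 4 lines -0.24 to 0.22.

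**Figure D4:**
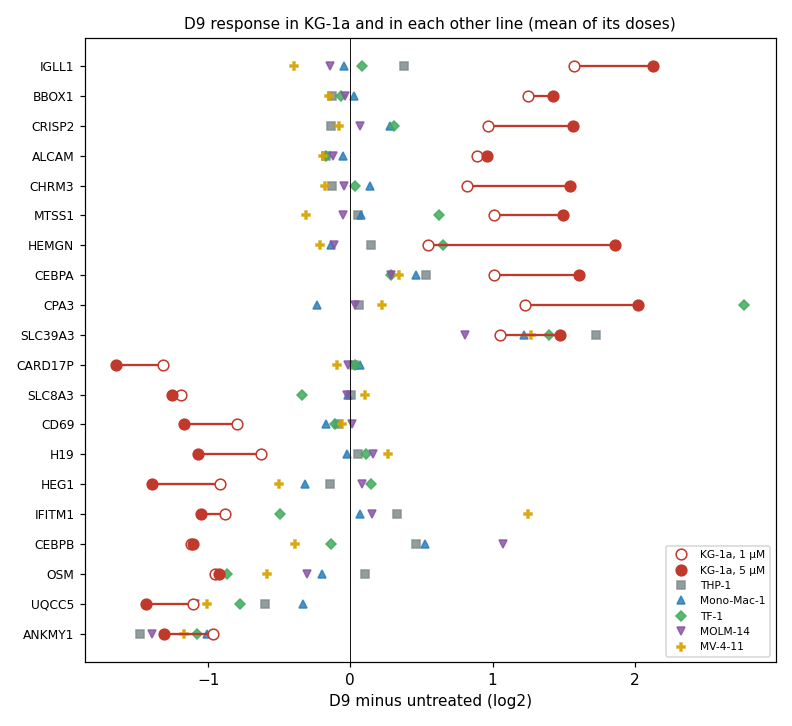
D9 minus untreated (x axis, log2) for 20 genes, with KG-1a at 1 µM (open red circles) and 5 µM (filled red circles) and the mean of the doses measured in each other line (small symbols). For BBOX1, ALCAM, CARD17P, SLC8A3, CD69 and H19 both KG-1a values lie outside the range of the other lines, for SLC39A3 and ANKMY1 they lie within or beside it, and for CPA3 the TF-1 value lies beyond them. BBOX1, CARD17P, SLC8A3, CD69 and H19 read near background untreated in most or all of the other lines.

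Between 1 and 5 µM, 9 probes were at least 2-fold higher (0.0317%) and 2 at least 2-fold lower (0.00704%) at 5 µM. Either way these were 11 in KG-1a, against 4 in MOLM-14, 19 in THP-1, 22 in TF-1 and 59 in Mono-Mac-1, so KG-1a was not lowest here. With 1 array at each dose there is no test of these steps. MMP25, a membrane-anchored protease of leukocytes, read 7.43 untreated, 7.79 at 1 µM and 9.28 at 5 µM. F2RL3, the thrombin receptor PAR4, read 7.08, 7.56 and 8.97, and HEMGN, a nuclear protein of blood progenitors, read 8.68, 9.22 and 10.54 on ILMN_2413537. In these genes the change at 1 µM (0.36, 0.48 and 0.54) was the smaller part of that at 5 µM (1.85, 1.90 and 1.86). The other tested F2RL3 probe, ILMN_1707127, read 6.22 untreated, near background, and had changes of -0.05 and -0.02. The histone gene H2AC18, whose probe may also read its near-identical copy H2AC19, read 8.0, 8.10 and 9.12, and MXD4, a repressor partner of MAX, read 9.14, 8.82 and 9.81. The lowest steps were those of TGDS (-0.85), the pseudouridine synthase PUS7 (-0.82), the histone H3 methyltransferase DOT1L (-0.77), the ribosomal protein gene RPS7 (-0.72) and NMI (-0.69). DOT1L read 6.85, 7.63 and 6.86 and NMI 8.88, 9.66 and 8.97, so in both the 1 µM array alone stood above the others.

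HSPA5, the main chaperone of the endoplasmic reticulum, belonged to the same pattern, at 8.03 untreated, 8.45 at 1 µM and 9.32 at 5 µM. Its mean change of 0.86 ± 0.32 was not called (adjusted p = 0.38), and the other lines averaged 1.30. Its promoter is shown because it carries the element through which the unfolded protein response acts. The 250 bases before its start, on the minus strand of chr9:125241344-125241593 in RefSeq on GRCh38.p14, held the endoplasmic reticulum stress element (CCAAT and CCACG, 9 bases apart), in capitals, once, and 0.074% of all windows of that length hold it on either strand.

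HSPA5 promoter: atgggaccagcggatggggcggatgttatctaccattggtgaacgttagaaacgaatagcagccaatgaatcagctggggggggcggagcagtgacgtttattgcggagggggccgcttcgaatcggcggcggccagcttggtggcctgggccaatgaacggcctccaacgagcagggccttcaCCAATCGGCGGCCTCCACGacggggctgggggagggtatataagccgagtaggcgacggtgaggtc

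The other chaperones of that list did not follow. Of its 17 measured genes 7 were above and 8 below untreated at both doses, the median change was -0.10 at 1 µM and -0.06 at 5 µM, and none was called. XBP1, a factor of the same response, had -0.54 and -0.88 (adjusted p = 0.104).

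The gene lists were read on the brightest tested probe of each gene, beside all 14337 genes tested so, of which 37.6% were above and 37.3% below untreated at both doses and 37 were called higher (0.258%) and 48 lower (0.335%). The median change over all genes was 0.00 at each dose. Medians below are given for 1 and 5 µM.

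Stem and progenitor markers were above untreated at both doses for 14 of 20 genes and below for 4, with medians of 0.05 and 0.21 and no call. BAALC read 9.56, 9.96 and 10.30 on its brightest probe (adjusted p = 0.191). Its other tested probe, ILMN_1707717 (7.99 untreated), had -0.26 and -0.23 without a call, so BAALC has no single direction. CD34 read 13.21, 13.49 and 13.81 (adjusted p = 0.289), and its other tested probes had mean changes of 0.53 and 0.69 (adjusted p = 0.179 and 0.169). CD34 was therefore not lower on either D9 array, on any of its probes, and CD38 read 6.56, 6.46 and 6.29, down to the background level. The median over this list in the other lines lay between -0.05 and 0.13.

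Of the monocyte and granulocyte genes 18 of 26 were above and 4 below untreated at both doses, with medians of 0.12 and 0.17 and 1 call, CEBPA. MPO, the myeloperoxidase of granules, read 6.61, 6.86 and 7.59 without a call (adjusted p = 0.73), and SPI1 and CSF3R had changes of 0.45 and 0.52 at 5 µM. The other lines had medians of -0.05 to 0.47 over the list. CD14, ELANE and FCN1 stayed at 6.02 to 6.34 at 5 µM, near background as in untreated cells. In the lymphoid list IGLL1 was the only call among 14 genes (5 above and 4 below, medians -0.05 and 0.12), and of 18 erythroid and megakaryocyte genes 3 were above and 3 below, with medians of -0.02 and 0.01. CD3D read 12.74 on all 3 arrays, LTB 11.36, 11.37 and 11.59, and HOPX 12.49, 12.40 and 12.39, none of them called.

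Genes of the proliferation lists were mostly below untreated, without a call on their brightest probes. Not counted there, ASF1B, given above, and a probe of the cyclin gene CCND3 (ILMN_1668721, -0.77, adjusted p = 0.0682) were called lower. Of 28 genes of S phase and DNA replication 20 were below and 2 above at both doses (medians -0.09 and -0.19), and of 27 genes of mitosis 18 were below and 4 above (medians -0.20 and -0.19). CDC45, a subunit of the replicative helicase, had -0.47 and -0.64 (adjusted p = 0.49), and CDC20, an activator of the anaphase-promoting complex, had -0.75 and -0.63 (adjusted p = 0.26). In Mono-Mac-1 the S phase median was -0.87 and in MV-4-11 -1.40, while TF-1 had 0.05, so KG-1a stood between the lines rather than apart from them. BIRC5, the survivin gene of mitosis and survival, read 10.15, 9.81 and 10.07 (adjusted p = 0.876). Among 18 genes of purine synthesis 12 were below and 5 above (medians -0.10 and -0.21). IMPDH2, which commits inosine monophosphate to guanine nucleotides, had -0.61 and -1.08 (adjusted p = 0.433), and GMPS, the next enzyme, -0.45 and -0.69 (adjusted p = 0.193). Ribosome biogenesis genes split (9 above, 6 below, medians 0.10 and -0.03), and MYC had 0.53 and 0.80 (adjusted p = 0.22). Among 22 histone genes 14 were above and 2 below, with medians of 0.06 and 0.26, and H1-2 had 0.40 and 1.00 (adjusted p = 0.33). Small nucleolar RNAs and their hosts were below for 10 of 16 and above for 4 (medians -0.25 and -0.32), SNHG7 having -0.74 and -0.91 (adjusted p = 0.121). Probes of SNORD25 (-0.92) and SNORA57 (-0.81), not counted there, were called lower.

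No transcript was called among the targets of the compound class. Arrays do not read protein, enzyme activity or histone marks, so these values do not show whether D9 reached its targets. By western blot the paper found H3K27me3, the mark EZH2 writes, suppressed to a similar degree in KG-1a and MOLM-14. It also reports that D9 depleted EZH2 protein in AML lines. EZH2 read 7.85, 7.50 and 7.72 (adjusted p = 0.808), and of 11 Polycomb repressive complex 2 genes 2 were above and 3 below at both doses, with medians of -0.04 and 0.04. AHCY, the hydrolase that DZNep inhibits, read 11.50, 11.62 and 11.37, on either side of untreated. The methionine cycle had 7 of 15 genes above and 4 below (medians 0.07 and 0.01), MAT2A, the S-adenosylmethionine synthetase, having -0.53 and -0.55 (adjusted p = 0.44). Of 11 genes linked to DZNep treatment or EZH2 loss 2 were above and 6 below (medians -0.17 and -0.01), against medians of -0.14 to 0.26 in the other lines.

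Of the genes of cell death, BNIP3L, a mitophagy receptor that is also on the FOXO list, rose by 0.77 ± 0.14 (adjusted p = 0.0808), and TP53I3, a quinone oxidoreductase under p53, rose by 0.85 ± 0.17 (adjusted p = 0.0964). A further BNIP3L probe, ILMN_1718961, had 0.55 (adjusted p = 0.395) and a dim one of TP53I3, ILMN_1651967, 0.04, neither called. BCL2L11, the gene of the BH3-only protein BIM, read 6.46, 6.29 and 6.29 in KG-1a (adjusted p = 0.822), close to background, and its 2 other tested probes had 0.13 and 0.05. Pro-apoptotic members were below untreated for 8 of 13 genes and above for 3 (medians -0.08 and -0.16), among them BID with -0.36 and -0.66 (adjusted p = 0.21), and anti-apoptotic members were above for 5 of 10 and below for 4 (medians 0.05 and 0.20). BCL2L1 had 0.54 and 0.53 (adjusted p = 0.21) and CFLAR -0.48 and -0.87 (adjusted p = 0.33), so that protective genes lay on both sides. The p53 targets had 6 of 19 above and 7 below (medians -0.05 and 0.00), and the FOXO targets 7 of 18 above and 4 below (medians 0.00 and 0.16), CITED2 having 0.53 and 1.29 (adjusted p = 0.39).

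Genes of interferon response and antigen presentation held 1 call. Of 24 interferon-stimulated genes 12 were below and 6 above at both doses, with a median of -0.10 at each dose, against 0.03 to 0.21 in the other lines, and IFITM1 was called lower. MX1 had -0.41 and -0.63 (adjusted p = 0.31). In MHC class I presentation the heavy chain genes HLA-B (0.31 and 0.41), HLA-C (0.28 and 0.34) and HLA-G (0.52 and 0.63) lay above untreated, while the peptide transporter TAP1 (-0.52 and -0.67), the immunoproteasome subunit PSMB9 (-0.42 and -0.73) and the class I activator NLRC5 (-0.41 and -0.47) lay below, none with a call. For TAP1 the difference from the other lines was -0.81 ± 0.17 (limma, adjusted p = 1.0, unadjusted p = 0.00191), and its change lay above 0 in all 5 others. Class I as a whole had 8 of 13 above and 5 below (medians 0.04 and 0.20). Of 13 class II genes 4 were above and 6 below (medians -0.08 and -0.02), against 0.98 in MV-4-11 and 0.38 in MOLM-14. HLA-DRB3 had -0.32 and -0.41 and HLA-DRA -0.24 and -0.21, from untreated levels of 8.80 and 7.98, and the other 11 genes read 5.89 to 6.55 untreated.

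**Figure D5:**
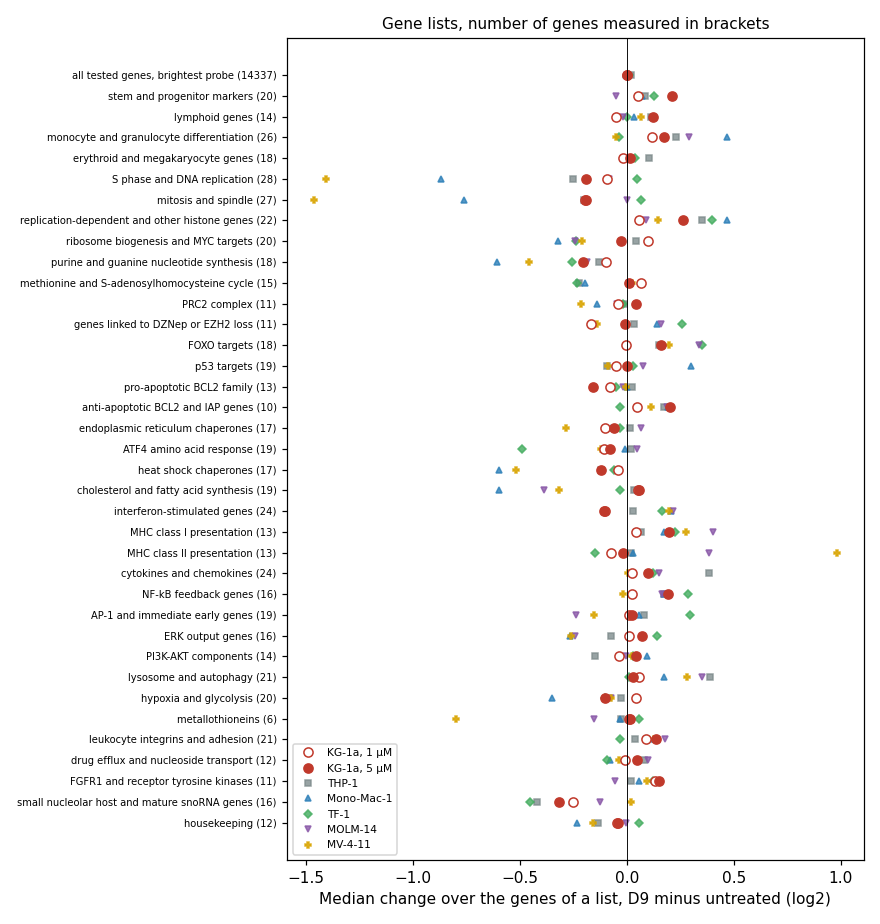
Median change over the measured genes of each of 36 lists and over all tested genes (x axis, D9 minus untreated, log2), with KG-1a at 1 µM (open red circles) and 5 µM (filled red circles) and the other lines (small symbols, mean of their doses). The KG-1a medians lie between -0.32 and 0.26, a narrower band than that of each other line.

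Of the signalling lists only that of cytokines held a call. ERK output genes had medians of 0.01 and 0.07 in KG-1a (7 of 16 above, 4 below) and PI3K-AKT components -0.04 and 0.04 (5 of 14 above, 5 below). AP-1 and immediate early genes had 0.01 and 0.02 (8 of 19 above, 6 below), with ZFP36, which destabilises cytokine transcripts, at -0.89 and -0.75 (adjusted p = 0.122). Of 24 cytokines and chemokines 12 were above and 7 below (medians 0.02 and 0.10), and OSM was called lower. IL1B read 8.83, 9.12 and 9.89 (adjusted p = 0.37) and TNFAIP3, a brake on NF-kB, 7.36, 7.71 and 8.61 (adjusted p = 0.58), both with most of their step above 1 µM. The NF-kB feedback list had 9 of 16 above and 6 below (medians 0.02 and 0.19), and receptor tyrosine kinases 6 of 11 above and 3 below (medians 0.13 and 0.15).

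Adhesion genes were above untreated for 16 of 21 and below for 4 (medians 0.09 and 0.14) with no call, ITGA6, a laminin receptor of stem cells, having 0.50 and 0.69 (adjusted p = 0.179). Among 17 heat shock chaperones 10 were below and 2 above (medians -0.04 and -0.12), and HSPB1 went against them with 0.67 and 1.37 (adjusted p = 0.104), at 1.14 ± 0.24 above the other lines. The ATF4 response had 12 of 19 below and 4 above (medians -0.11 and -0.08), and cholesterol and fatty acid synthesis 10 of 19 above and 4 below (medians 0.05 and 0.06), against -0.60 in Mono-Mac-1 and -0.39 in MOLM-14. Drug efflux and nucleoside transport genes had 5 of 12 above and 3 below (medians -0.01 and 0.05). ABCB1, the multidrug pump, read 9.47, 9.36 and 9.82 in KG-1a, on either side of untreated, and ABCC4, a nucleotide analog pump, had 0.51 and 0.62 (adjusted p = 0.24). Lysosome and autophagy genes (9 of 21 above, 4 below, medians 0.06 and 0.03), hypoxia and glycolysis genes (7 of 20 above, 7 below, medians 0.04 and -0.10), metallothioneins (2 of 6 above, 2 below, medians 0.01 at each dose) and housekeeping genes (2 of 12 above, 6 below, medians -0.05 and -0.04) held no call on their brightest probes. A further probe of CTSC (-0.73) and of HSP90AA1 (-0.60) was called lower, while the probes of these genes that were brightest over all arrays had mean changes of 0.00 and -0.01.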

How the data were processed

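RNA of 6 AML lines was hybridised to Illumina HT-12 V4 arrays, 1 array per line and condition, and precision is limited by that number. The authors deposited probe intensity on a linear scale from GenomeStudio (version not given in the sources used here), without normalization, and a table of log2 values, which could be rebuilt within 0.001 as log2 signal minus array 75th percentile and probe median. The intensity table was used. Signals were corrected with normexp (offset 50), quantile-normalized over 17 arrays and put on the log2 scale in limma 3.58.1 (R 4.3.3), so changes are relative to all probes. Probes with a mean above the 40th percentile were tested, 28394 of 47323, 19543 of them with 1 current symbol.

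The D9 fit used all 17 arrays (5 residual degrees of freedom), and the fit between lines 1 value per line (4). Both fits were run on simulated arrays with independent normal noise and no D9 effect in the other lines. Of 100 probes changed 2-fold in KG-1a, the D9 fit called 90 and the fit between lines 75. Of 28194 unchanged probes they called 27 and 18. Because the real lines differ in their D9 response, this does not show how the fits perform on the real data. Members, the 36 gene lists (589 of 673 genes measured) and the naming rule were chosen with earlier results of these data known. The rule named genes at least 2-fold the same way at both doses, the 5 smallest p each way against the other lines, the 5 largest dose steps each way, 6 fixed genes (EZH2, BCL2L11, BIRC5, AHCY, CD34, CD38) and up to 4 genes per list. Symbols were updated by RefSeq gene number. Of 191 named genes 150 had a promoter entry. Alternatives were other values, filters, thresholds and variance models, the t-test of the paper's methods on 1 value per line, and leaving out each other line. The paper compared its arrays by Significance Analysis of Microarrays, so that t-test does not repeat its array analysis. No column was without a sample.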

Additional observations from a re-analysis of the deposited data

Results flagged for a closer look

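The acetyl-CoA carboxylase gene ACACA, which makes the first committed step of fatty acid synthesis, was the 1 named gene whose change lay on opposite sides of 0 in KG-1a and in every D9 array of the other lines. It had 0.16 at 1 µM and 0.25 at 5 µM in KG-1a, against a mean of -0.40 in the other 5 lines. The difference was 0.60 (limma, adjusted p = 1.0, unadjusted p = 0.0217), which does not pass the threshold, and the KG-1a change alone was not called (adjusted p = 0.83).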

How the results depend on the processing

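Each condition was 1 array, the untreated array enters every KG-1a change, and signal near background hides changes of dim genes. Of the 128 probes called for D9 in KG-1a, the count became 295 with the authors' log2 values, 28 with an offset of 16, 27 at an adjusted p under 0.05, 996 with the KG-1a arrays alone and 0 without moderation, and it ranged from 30 to 173 when each other line was left out (30 without MOLM-14 and 40 without Mono-Mac-1). Of these calls 119 were shared with the authors' values, 96 without background correction, 88 with median scaling and 28 with the lower offset. The probes at least 2-fold the same way at both doses were 42 with an offset of 16 and 265 at 1.5-fold, and the dose step counts 20 with an offset of 16 and 142 at 1.5-fold. Against the other lines, 3 probes were called without the filter, 13 with an intensity trend and 874 by the methods' t-test at an unadjusted p under 0.05 (0 after Benjamini-Hochberg adjustment). That count stayed 0 whichever line was left out. The other planned settings, and a filter on the mean of the KG-1a arrays that was chosen after seeing the data (137 calls for D9), left the counts within 1.5 times. Of the 193 probes of named genes, AHCY alone changed direction, to 0.067 with median scaling, a scaling that moved the median of all probes by 0.0507 at 1 µM. Under the authors' values, no background correction, median scaling and an offset of 16, 0, 1, 6 and 24 of the 193 lost their call and 6, 2, 3 and 0 gained one. No paired analysis was possible because every group has a single array, numbered 1; each D9 array was set against the untreated array of its own line throughout.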
